A study of Gallus gallus with 12 samples.

Results

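The ligands and receptors described here are the semaphorins, netrins, SLITs and ephrins, which steer growing axons and sprouting vessels, together with the plexins, UNC5 receptors, neogenin, ROBO receptors and EPH receptors that read them. Members were all probe sets whose annotated symbol starts with SEMA, PLXN, UNC5, SLIT or ROBO and a digit, EFNA, EFNB, EPHA or EPHB, with NTN1, NTN3, NTN4 and NEO1 added. This gave 137 probe sets of the 38439 apart from controls. UNC50, which shares the letters but is no guidance receptor, accounted for 2 of them and was set aside, so that 135 probe sets of 53 genes remained, among 13009 gene symbols in all. No probe set carried the symbol DCC in the annotation used.

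The chorioallantoic membrane (CAM) is the vascularised membrane through which the chick embryo breathes in the egg. Untreated CAMs were taken at 4 embryonic days, E5, E7, E10 and E14, 3 individuals at each. Every CAM was read on a separate Affymetrix chicken array, which makes 12 arrays. The labels give neither strain nor sex. Each array read the RNA of a whole membrane, with endothelium, epithelium, stroma and blood together, so that more cells of a type and more RNA per cell cannot be told apart.

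Semaphorins act on plexins, and the secreted class 3 members mostly do so through the neuropilins as co-receptors. Netrins attract or repel by way of DCC, neogenin and the UNC5 receptors, SLITs repel through ROBO receptors, and ephrins bound to one cell surface signal to EPH receptor tyrosine kinases on the next. In vessels of mice and fish, members of each family are known to restrain or orient endothelial sprouts, or to set arteries apart from veins.

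A probe set was tested when its signal reached 35 in all 3 arrays of at least 1 stage, which 71 guidance probe sets of 37 genes passed, among 17726 tested in all. Signals are in the arbitrary units of the array software. They are compared only within a probe set or, for lists of marker genes, as sums over the same probe sets. Changes are log2 fold changes, later minus earlier stage, with the standard error (SE) and the adjusted p (Benjamini-Hochberg) of limma's test over all 17726. A call needed an adjusted p under 0.05 together with a change of more than 2-fold, and "rose" and "fell" are kept for called changes. The 5 comparisons share arrays, so that their calls are not independent of each other.

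The median signal of the arrays ran from 24.4 to 33.6, except E7 replicate 3 with 48.6, and this array also correlated least with its own stage (mean r 0.83, against 0.876 to 0.943 for the others). Median signals moved with stage as well. They were 24.4 to 28.7 at E5, 25.6 to 29 at E10 and 29.9 to 33.6 at E14, where every array lay above all those of E5 and E10. HINTW, a gene of the female W chromosome, read 3680 or more in 7 arrays and at most 109.6 in the other 5. It was high in all 3 arrays of E10 and in 1 array each of E5 and E7, so that sex was unevenly spread over the stages. At E14 it was low in replicate 2 alone. Signal ratios of 3′ to 5′ actin probe sets, a sign of RNA integrity, also moved with stage, from 1.26 to 1.5 at E5, 1.19 to 2.76 at E7 (2.76 in replicate 3), 1.51 to 1.66 at E10 and 2.21 to 3.43 at E14. Those of GAPDH were 0.92 to 0.98 at E5 and 1.19 to 1.30 at E14. Their part in the changes from E5 to E14 was not tested.

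On the deposited scale most guidance genes that changed did so upwards, although with arrays scaled to equal medians the calls from E5 to E14 split 11 to 8, where all tested probe sets split 1677 to 3262. From E5 to E7, 5 of the 71 probe sets rose and 0 fell by limma, where 1.02% of all tested probe sets rose and 0.243% fell (1.26% together). From E7 to E10, 3 rose and 0 fell, against 2.75% and 0.671% of all (3.42% together). From E10 to E14, 0 rose and 2 fell, against 1.22% and 1.48% of all (2.7% together). At an unadjusted p under 0.05, 1 and 4 probe sets were lower over the first and second of these steps and 4 were higher over the last. These small counts moved with single arrays: the 5 became 3 without any 1 E5 array or without E7 replicate 1 or 2, the 3 became 1 without E7 replicate 2 or E10 replicate 1 or 3, and the 2 became 0 without any 1 E10 array and 1 without E14 replicate 3. Without E7 replicate 3, 5 were called from E10 to E14, SEMA3D as higher and the others as lower.

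Calls were more numerous over the longer spans. From E5 to E10, 16 probe sets rose and 2 fell, so that 22.5% of the members rose against 9.36% of all tested probe sets, 2.82% fell against 4.78%, and 25.4% were called against 14.1%. From E5 to E14, 20 rose and 5 fell, which is 28.2% against 14.8% higher, 7.04% against 13.6% lower and 35.2% against 28.4% in all. Of the 20, both tested SEMA4G probe sets and a probe set each of SEMA3D, SEMA7A and PLXNA2 passed the filter at E14 alone. They were tested only because E14 was high. Both called SEMA3G probe sets, a SEMA5A probe set and another each of SEMA3D and PLXNA2 passed only at E10 and E14. These too were tested only because later stages were high. The SEMA3G pair and this PLXNA2 probe set are also among the 16 that rose from E5 to E10. With arrays scaled to equal medians, the members split 11 to 0 from E5 to E10 and all tested probe sets 1028 to 446. With quantile normalization the members split 14 to 6 from E5 to E14 and all tested probe sets 2106 to 2423.

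Counted without the fit, 36 of the 71 members had all 3 CAMs of E10 above all 3 of E5, 50.7% against 25% of all tested probe sets, and 7 had them below, 9.86% against 21.8%. At E14, 33 members lay wholly above E5 (46.5% against 28%) and 8 wholly below (11.3% against 26.4%). Members that passed the filter at E14 alone, such as both tested SEMA4G probe sets, are among the 33. Among the 36 are members that passed at E10 alone, such as a probe set each of SEMA5A and SEMA6A. Others, such as SEMA3G GgaAffx.26220.2.S1_at, passed only at E10 and E14 and are among the 36 and the 33. All of these were tested only because later stages were high, so they are no support for the higher shares. Between neighbouring stages, 15 members lay wholly higher at E7 than at E5 and 3 lower (10.1% and 12.1% of all), 13 and 6 from E7 to E10 (16.5% and 9.77% of all), and 10 and 14 from E10 to E14 (14% and 15.2% of all).

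In all, 31 probe sets of 19 genes were called at least once, 43.7% of the members against 31.7% of all tested probe sets. Of these genes 14 rose, 4 fell (SEMA3A, UNC5C, EPHA3 and EPHA7) and 1, EFNB1, had probe sets called both ways. Of the 31 probe sets, 10 were called between neighbouring stages and 21 only over the longer spans. The 10 are 14.1% of the members tested and 32.3% of those called, against 6.85% of all tested probe sets and 21.6% of those called. The plot of signals by stage shows that SEMA6D and EPHB3 made most of their climb before E7, UNC5B between E7 and E10, and SEMA3D after E10.

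**Figure D1:**
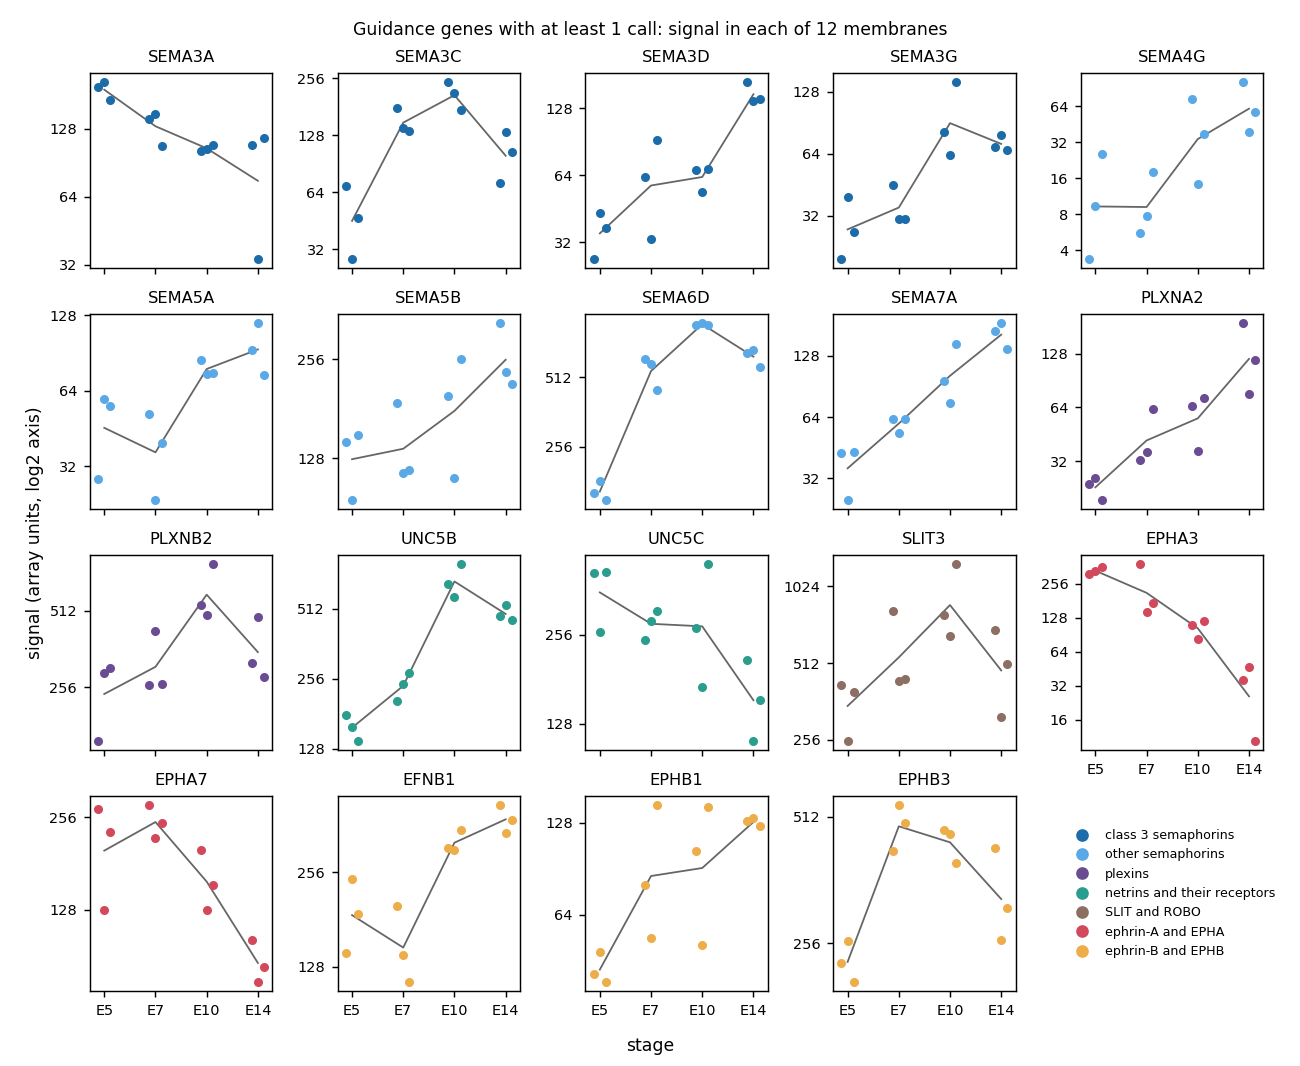
Signal (array units, log2 axis) at E5, E7, E10 and E14 for the 19 guidance genes with a call, each by the probe set with its smallest adjusted p; points are the 3 CAMs of a stage and lines join their geometric means. SEMA3A, UNC5C, EPHA3 and EPHA7 end at E14 below E5, and the other 15 end above it.

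The members had their highest mean signal at E10 in 27 of 71 probe sets and at E14 in 25, that is 38% and 35.2%, against 20.4% and 32.8% of all tested probe sets. The highest mean was at E5 in 9 members, 12.7%, and in 32.9% of all tested probe sets. The lowest mean was at E5 in 40 members, a count with no share over all tested probe sets beside it. Without E7 replicate 3 the highest mean was at E14 in 27 members (38%), at E10 in 25 (35.2%) and at E5 in 10. The lead of E10 over E14 thus rested on that array. The shares of all tested probe sets were then 33.6% at E14 and 20.2% at E10. For members that passed the filter at 1 stage alone, the filter favoured that stage as the highest. Examples are SEMA4D at E5, SEMA3DL at E7, a SEMA6A probe set at E10 and both tested SEMA4G probe sets at E14. The same filter acted on all tested probe sets. These shares are a description with no test.

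**Figure D2:**
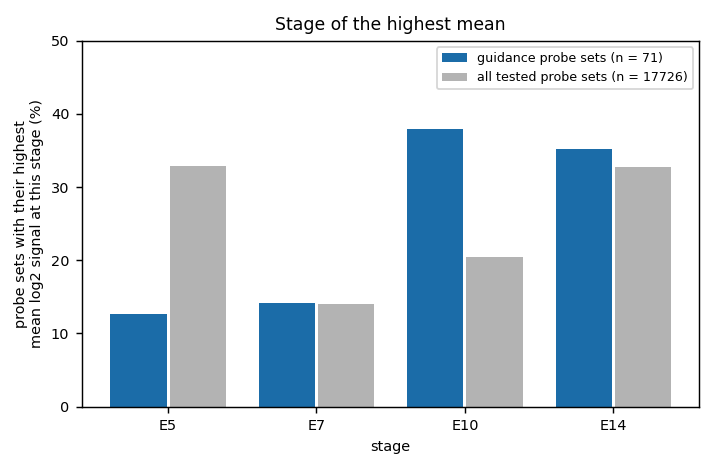
Share of probe sets (%) whose mean log2 signal was highest at each stage, for the 71 tested guidance probe sets and for all 17726 tested probe sets. The guidance share is above the other at E10 (38% against 20.4%) and below it at E5 (12.7% against 32.9%). Some probe sets passed the filter at a single stage alone, which favours that stage.

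Counts are given by role, on the deposited scale. From E5 to E14, 15 of 41 ligand probe sets rose and 1 fell, that is 36.6% and 2.44%, with a median log2 fold change of 0.64. Of 30 receptor probe sets 5 rose and 4 fell, that is 16.7% and 13.3%, close to the 14.8% and 13.6% of all tested probe sets, with a median of 0.53. The median over all tested probe sets was 0.03. The ligand calls were mostly semaphorins: of 14 semaphorin genes tested, 8 rose, 1 fell and 5 had no call. Among the ligand rises, both tested SEMA4G probe sets and a probe set each of SEMA3D and SEMA7A passed the filter at E14 alone. They were tested only because E14 was high. Both called SEMA3G probe sets, a SEMA5A probe set and another of SEMA3D passed only at E10 and E14. None of these rises is support for a higher ligand share. Among the receptor rises, a PLXNA2 probe set passed at E14 alone and another only at E10 and E14. The difference between ligands and receptors was not tested.

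**Figure D3:**
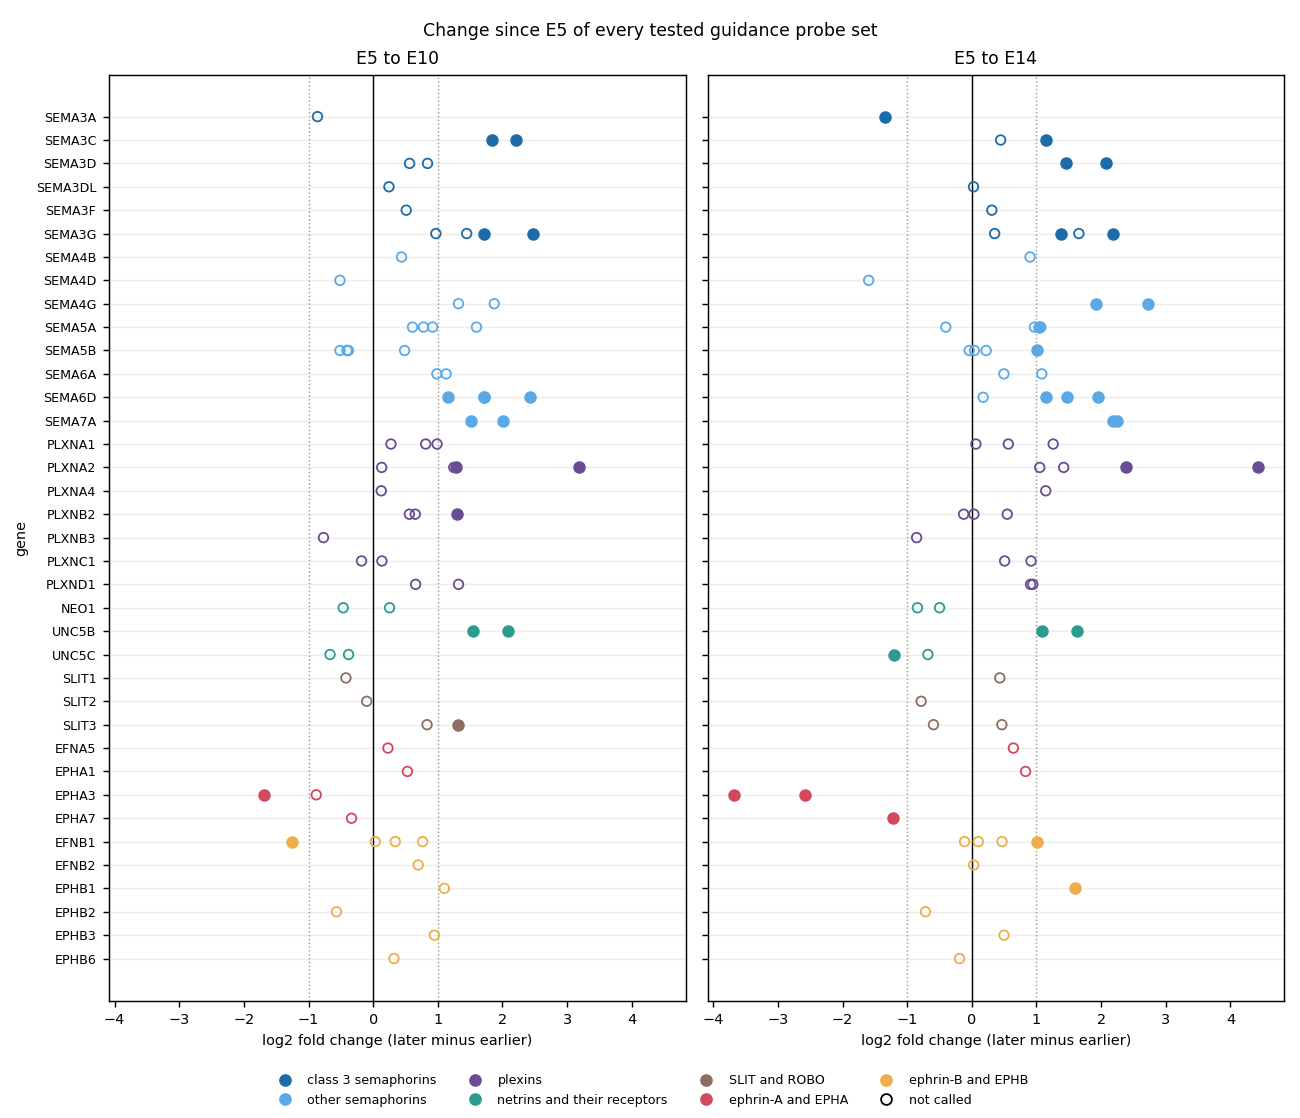
Log2 fold change since E5 at E10 (left) and at E14 (right) of each of the 71 tested guidance probe sets, a row per gene and coloured by family; filled points are called, open points are not, and dotted lines mark a log2 change of 1 in size. Both panels share the E5 arrays. EPHA3 lies farthest to the left at E14 and a PLXNA2 probe set farthest to the right.

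Of the transmembrane semaphorins, SEMA6D was the only one called from E5 to E7, and all of its 4 tested probe sets were called by E10. SEMA6D is a class 6 semaphorin that acts through plexin A1 in the chick heart. Its probe set Gga.18451.1.S1_at read 160.4, 180.3 and 149.6 at E5, 614, 586 and 451 at E7, 868, 882 and 867 at E10, and 653, 673 and 570.0 at E14. All 3 CAMs of E7 were above all 3 of E5, those of E10 were above those of E7, and E14 lay between E5 and E10. It rose from E5 to E7 (log2 fold change 1.74 with SE 0.18, adjusted p = 0.000256) and stood higher than at E5 also at E10 (2.42, SE 0.18, adjusted p = 2.42e-06) and E14 (1.95, SE 0.18, adjusted p = 3.29e-06). The early rise was lost only with equal array medians, where the adjusted p was 0.12, and the others held under every alternative tried.

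Another SEMA6D probe set, GgaAffx.3009.1.S1_s_at, read 307, 219 and 292 at E5, 900.1, 1220 and 1158 at E7, 1037, 906 and 745 at E10, and 981, 648 and 660.2 at E14. Here the plateau was reached at E7, with overlapping signals from E7 to E14, all above E5. It rose by 2.00 on the log2 scale from E5 to E7 (SE 0.22, adjusted p = 0.000427), and again this call was lost only with equal array medians. GgaAffx.21262.1.S1_s_at read 277 and 314 in E7 replicates 1 and 2 but 90.8 in replicate 3, and from E5 to E7 it gave 1.55, SE 0.37, adjusted p = 0.0525, with an adjusted p of 0.000929 without E7 replicate 3. This early change was also called with a filter limit of 50, an offset of 16 or a floor of 20. From E5 to E10 it rose (log2 fold change 1.72 with SE 0.37, adjusted p = 0.00516), lost with equal array medians, where the adjusted p was 0.052. From E5 to E14 it rose by 1.15 (SE 0.37, adjusted p = 0.0228). That call was lost without E5 replicates 2 or 3 or E14 replicate 3 (adjusted p up to 0.0701). It was also lost with an offset of 16, quantile normalization or equal array medians. Gga.12880.2.S1_s_at rose at E7 by 1.17 (SE 0.27, adjusted p = 0.0495), a call lost without any 1 of 10 arrays, all but E7 replicate 3 and E14 replicate 2 (adjusted p up to 0.178), and with quantile normalization, equal array medians, moderation without a trend, the 6 arrays compared alone, HINTW as a covariate or the replicate block or without the filter. It also rose from E5 to E10 (log2 fold change 1.16 with SE 0.27, adjusted p = 0.009), lost without E5 replicate 1 (log2 fold change 0.98), and with equal array medians. At E14 its signals, 89.6, 104.3 and 75.0, overlapped those of E5 again.

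SEMA7A, a membrane-anchored semaphorin that binds plexin C1 and integrins, had a higher mean at each later stage, with no call between neighbouring stages. Gga.13483.1.S1_at read 42.6, 25.0 and 43.2 at E5, 62.7, 53.6 and 62.6 at E7, 96.5, 75.4 and 146 at E10, and 169, 185 and 137 at E14. Signals of E5, E7 and E10 did not overlap, and those of E10 and E14 overlapped in 1 CAM each. It rose from E5 to E10 (log2 fold change 1.51 with SE 0.32, adjusted p = 0.00488) and from E5 to E14 (log2 fold change 2.18 with SE 0.32, adjusted p = 0.000131), under every alternative tried. The second probe set, GgaAffx.24135.1.S1_s_at, passed the filter at E14 alone and gave 2.01 and 2.25 for the same spans, from E5 signals of 6.19 to 16.4. Its call from E5 to E10 was lost without any 1 of 9 arrays, all but E7 replicate 1, E7 replicate 3 and E14 replicate 2 (adjusted p up to 0.181), and with an offset of 16, a floor of 20, quantile normalization, moderation without a trend or HINTW as a covariate or without the filter, and that from E5 to E14 without E5 replicate 1 or E14 replicate 2 (adjusted p up to 0.071). PLXNC1, which encodes the receptor plexin C1, had no call in either tested probe set, and Gga.16573.1.S1_at had a small range (0.51 log2 units between stage means).

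SEMA4G, SEMA5A and SEMA5B, also transmembrane, rose only over the full span from E5 to E14. In SEMA4G this held for both tested probe sets, which passed the filter at E14 alone. Gga.13064.1.S1_at read 3.36, 9.34 and 25.4 at E5, 5.60, 7.65 and 17.9 at E7, 73.8, 14.2 and 37.3 at E10, and 102, 38.6 and 57.7 at E14. The signals at E5 and E7 were at most 25.4, and those at E14 were 38.6 or more (log2 fold change 2.72 with SE 0.84, adjusted p = 0.019). At such low signals the size of the change depends on the scale: over the alternatives that tested it, its log2 fold change ran from 1.49 to 3.44, and the call was lost without E5 replicate 1 or E14 replicate 1 (adjusted p up to 0.0848). Gga.6124.1.A1_at rose by 1.93 (SE 0.64, adjusted p = 0.0284), lost without E5 replicate 2 or E14 replicates 1, 2 or 3 (adjusted p up to 0.123), and with quantile normalization or equal array medians.

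SEMA5A and SEMA5B, semaphorins with thrombospondin repeats, each rose in 1 of 4 tested probe sets. The SEMA5A probe set GgaAffx.24100.1.S1_s_at had log2 fold change 1.04 with SE 0.38, adjusted p = 0.0436, and the call was lost without any 1 of 7 arrays, all but E5 replicate 2, E7 replicate 1, E7 replicate 2, E7 replicate 3 and E14 replicate 3 (adjusted p up to 0.19), and with an offset of 16, quantile normalization, equal array medians or the replicate block or without the filter. It passed the filter only at E10 and E14, so it was tested only because later stages were high. Another SEMA5A probe set, Gga.7894.1.S1_at, gave 0.97 over this span (SE 0.34, adjusted p = 0.0342), short of the fold alone. It was called without E5 replicate 3. The remaining SEMA5A pair gave 1.07 and -0.40, not called. The SEMA5B probe set Gga.14401.1.S1_at had log2 fold change 1.00 with SE 0.32, adjusted p = 0.0237, with signals of 95.7 to 150.2 at E5 and 215 to 329 at E14, and its call was lost without E5 replicate 2 or E14 replicate 1 (adjusted p up to 0.102), and with an offset of 16, quantile normalization, equal array medians or HINTW as a covariate. The remaining 3 SEMA5B probe sets had values between -0.04 and 0.22 over this span. SEMA4B, with 0.90, SE 0.24, adjusted p = 0.00888, passed the p threshold but not the fold, SEMA4D and SEMA6A had no call (a SEMA6A probe set was called higher from E7 to E10 without E7 replicate 3), and SEMA6B, at 14.2 or less, was not tested.

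Of the secreted class 3 semaphorins, 11 probe sets of 6 genes were tested, and SEMA3C, SEMA3D and SEMA3G rose while SEMA3A fell. SEMA3C, which guides cardiac neural crest and binds both neuropilins, peaked at E10. Its probe set Gga.1846.1.S2_at read 69.3, 28.4 and 46.9 at E5, 178, 139 and 135 at E7, 244, 214 and 173 at E10, and 71.6, 133 and 105 at E14. Every CAM of E7 and E10 was above every CAM of E5, and the 3 CAMs of E14 lay between those of E5 and E7 without overlap. It rose from E5 to E7 (log2 fold change 1.72 with SE 0.33, adjusted p = 0.0166), a call lost without E5 replicate 2 or E7 replicate 1 (adjusted p up to 0.0724), and with equal array medians or the 6 arrays compared alone. From E5 to E10 it rose by 2.21 (SE 0.33, adjusted p = 0.000466), under every alternative.

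By E14 this SEMA3C signal was 1.06 lower than at E10 on the log2 scale, which did not pass (SE 0.33, adjusted p = 0.0945), and still higher than at E5 (1.14, SE 0.33, adjusted p = 0.0138), lost without E5 replicate 2 or E14 replicate 2 (adjusted p up to 0.0718), and with an offset of 16 or equal array medians. The second SEMA3C probe set, Gga.1846.1.S1_at, followed the same course with 47.7, 57.0 and 53.6 at E5, 183.5, 169 and 216 at E10, and 36.3, 113 and 89.7 at E14. It rose from E5 to E10 (log2 fold change 1.84 with SE 0.40, adjusted p = 0.00592). From E10 to E14 it gave -1.39, SE 0.40, adjusted p = 0.0721, and it was called lower without E7 replicate 3 or E14 replicate 2 (adjusted p down to 0.0365).

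SEMA3D, which patterns the pulmonary veins in mice, moved late. Gga.3972.1.S1_at read 26.9, 43.1 and 37.2 at E5, 62.6, 33.0 and 91.8 at E7, 67.7, 53.6 and 68.1 at E10, and 167, 137 and 140.1 at E14. Signals at E14 were all above those of the other 9 CAMs, and the rise from E5 to E14 (log2 fold change 2.08 with SE 0.36, adjusted p = 0.000517) held under every alternative. This probe set passed the filter only at E10 and E14. It was tested only because later stages were high, so the kept call is no support for its rise. From E10 to E14 the change was 1.23, SE 0.36, adjusted p = 0.0771, not called, but called without E7 replicate 2 or 3 (adjusted p down to 0.0307), with an offset of 16 and with the 6 arrays compared alone. The probe set Gga.3972.1.S2_at, which passed the filter at E14 alone, rose from E5 to E14 (log2 fold change 1.45 with SE 0.53, adjusted p = 0.0422). This call was lost without any 1 of 7 arrays, all but E5 replicate 2, E7 replicate 1, E7 replicate 2, E7 replicate 3 and E10 replicate 1 (adjusted p up to 0.123), and with quantile normalization, equal array medians or HINTW as a covariate or without the filter. A further SEMA3D probe set, Gga.17936.1.S1_at, stayed between 0.61 and 14.4 and was not tested.

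SEMA3G, an endothelial semaphorin that binds neuropilin 2, rose by E10 in 2 of its 4 tested probe sets. GgaAffx.26220.2.S1_at read 19.7, 39.2 and 26.7 at E5, 45.1, 30.7 and 31.0 at E7, 81.3, 63.0 and 142 at E10, and 68.8, 79.0 and 66.7 at E14. Signals at E10 and E14 were 63.0 or more, and those at E5 and E7 at most 45.1. The rise from E5 to E10 (log2 fold change 1.71 with SE 0.39, adjusted p = 0.00741) was lost without E10 replicate 3 (adjusted p up to 0.0513), and that from E5 to E14 (1.38, SE 0.39, adjusted p = 0.0121) without E5 replicate 1 (adjusted p up to 0.0562), and with an offset of 16 or equal array medians. GgaAffx.26220.2.S1_s_at gave 2.47 and 2.18 over the same spans (adjusted p = 0.0168 and 0.0172), lost without E5 replicate 3 or E10 replicate 3 (adjusted p up to 0.0825) for the first and without E5 replicate 3 or E14 replicate 1 (adjusted p up to 0.0727) for the second. Both of these probe sets passed the filter only at E10 and E14. They were tested only because later stages were high, so their calls are no support for a rise. The other tested pair gave 0.97 and 1.45 from E5 to E10, with no call. The 0.97 was that of GgaAffx.2769.1.S1_s_at, which passed the filter at every stage.

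SEMA3A, the best known axon repellent of the class, was the only semaphorin gene with a fall. Its single tested probe set read 197, 206 and 171 at E5, 142, 149 and 108 at E7, 102, 104 and 109 at E10, and 108, 34.0 and 116 at E14. Every CAM of E10 and E14 was below every CAM of E5, and E14 replicate 2 stood far under its stage. The fall from E5 to E14 (log2 fold change -1.34 with SE 0.37, adjusted p = 0.0111) was lost without E14 replicate 2 (log2 fold change -0.76). SEMA3F and SEMA3DL had no call, and SEMA3B and SEMA3E were not tested, with signals of at most 24.9 and 47.4.

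The neuropilins, co-receptors of class 3 semaphorins and of vascular endothelial growth factors, were read outside the member list. NRP2 rose from E5 to E10 in 1 of 3 tested probe sets, from 99.0, 175 and 218 at E5 to 335, 335 and 277 at E10 (log2 fold change 1.01, SE 0.26, adjusted p = 0.0138). Its other probe sets gave 0.61 and 0.75. NRP1 had no call in any of the 5 comparisons, and its probe set Gga.15879.1.S1_s_at ranged from 671 to 1452 over all 12 CAMs.

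Among the plexins, PLXNA2 and PLXNB2 rose, and the other 5 genes had no call. PLXNA2 encodes a receptor of class 6 semaphorins and, with neuropilins, of class 3. Gga.19875.1.S1_at read 23.7, 25.9 and 19.4 at E5, 32.4, 36.0 and 62.3 at E7, 65.2, 36.3 and 72.3 at E10, and 189.6, 76.3 and 118 at E14. All 3 CAMs of E14 exceeded the 9 earlier ones, and those of E5 lay below all others. It rose from E5 to E14 (log2 fold change 2.39 with SE 0.42, adjusted p = 0.000545) under every alternative, and from E5 to E10 by 1.28 (SE 0.42, adjusted p = 0.0443), lost without E5 replicates 1, 2 or 3, E10 replicates 1 or 3 or E14 replicate 3 (adjusted p up to 0.164), and with an offset of 16, quantile normalization, equal array medians or HINTW as a covariate or without the filter. Gga.19875.1.S1_at passed the filter only at E10 and E14. It was tested only because later stages were high, so its calls are no support for the rise. GgaAffx.20310.1.S1_at, which passed the filter at E14 alone, had the largest fold change of the members on the plain log2 scale, from 1.73, 2.10 and 10.5 at E5 to 98.4, 44.7 and 86.4 at E14 (log2 fold change 4.43 with SE 0.97, adjusted p = 0.00247). With E5 signals this low the log2 value ran from 1.86 to 5.25 over the alternatives that tested it, and the call was kept in these, while a filter limit of 50 left the probe set out. This probe set was tested only because E14 was high, so the kept call is no support for its rise to E14. Its call from E5 to E10 was lost without E5 replicates 1 or 2 or E10 replicates 1, 2 or 3 (adjusted p up to 0.117), and with an offset of 16, a floor of 20 or HINTW as a covariate. The 2 remaining PLXNA2 probe sets gave 1.05 and 1.42 from E5 to E14, not called.

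PLXNB2, a receptor of class 4 semaphorins, rose from E5 to E10 in 1 of 3 tested probe sets. Gga.8211.1.S1_at read 157, 292 and 304 at E5, 260.4, 427 and 263 at E7, 541, 492 and 782 at E10, and 319, 485 and 282 at E14. Its peak at E10 did not overlap E5, E7 or E14 (log2 fold change 1.30 with SE 0.31, adjusted p = 0.00884), and the call was lost without E5 replicate 1 or E10 replicate 3 (adjusted p up to 0.0507), and with equal array medians. PLXND1, the endothelial receptor of SEMA3E, read 376, 345 and 726 at E5 and 1036, 791 and 762 at E14 in Gga.6241.1.S1_at (0.91, SE 0.32, adjusted p = 0.0374), so it passed the p threshold but not the fold. It was called without E5 replicate 3, where the adjusted p was 0.00936. PLXNB3 gave -0.86, SE 0.29, adjusted p = 0.0289, likewise short of the fold, and was called lower without E14 replicate 3 and with equal array medians. Among plexin probe sets the PLXNA1 probe set Gga.3174.1.S1_at varied least, with stage means within 0.28 log2 units and a change from E5 to E14 of 0.06 (95% confidence interval -0.44 to 0.56), and GgaAffx.3838.1.S1_at had 0.81, SE 0.28, adjusted p = 0.115 from E7 to E10. The third, GgaAffx.3803.1.S1_s_at, gave 1.26, SE 0.57, adjusted p = 0.0955 from E5 to E14, and was called higher without E7 replicate 2 or 3, with a floor of 20 and with the 6 arrays compared alone (adjusted p down to 0.028).

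The netrin receptors moved in opposite directions: UNC5B rose and UNC5C fell. UNC5B, which in mice restrains the sprouting of endothelial tip cells, rose between E7 and E10. GgaAffx.21150.1.S1_at read 179, 159 and 138 at E5, 206, 244 and 271 at E7, 655, 577 and 796 at E10, and 474, 532 and 456 at E14. Each of E5, E7 and E10 stood clear of the one before, and the CAMs of E14 lay between E7 and E10. It rose from E7 to E10 (log2 fold change 1.49 with SE 0.20, adjusted p = 0.00114), from E5 to E10 (2.09, SE 0.20, adjusted p = 1.88e-05) and from E5 to E14 (1.62, SE 0.20, adjusted p = 3.02e-05), all under every alternative.

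The second UNC5B probe set, Gga.1452.1.S1_at, read 202, 269 and 302 at E7 and 729, 448 and 663 at E10, and rose as well (log2 fold change 1.24 with SE 0.32, adjusted p = 0.0417). This call was lost without any 1 of 7 arrays, all but E7 replicate 3, E10 replicate 2, E14 replicate 1, E14 replicate 2 and E14 replicate 3 (adjusted p up to 0.152), and with quantile normalization, moderation without a trend or HINTW as a covariate. From E5 to E10 it rose by 1.55 (SE 0.32, adjusted p = 0.00418) under every alternative. From E5 to E14 it rose by 1.09 (adjusted p = 0.015), lost without E5 replicate 2 or E14 replicates 1 or 3 (adjusted p up to 0.0756), and with equal array medians or HINTW as a covariate, and E14 replicate 2 read 242 next to 637 and 538.

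UNC5C, a receptor of axon repulsion, fell in 1 of 2 tested probe sets. Gga.8535.1.S1_at read 414, 260.2 and 416 at E5, 246, 285 and 307 at E7, 269.7, 170.1 and 443 at E10, and 211, 112 and 154 at E14. All 3 CAMs of E14 were below all 3 of E5 (log2 fold change -1.21 with SE 0.33, adjusted p = 0.00927), a call lost without E14 replicate 2 (log2 fold change -0.98). Gga.8535.1.S2_at read 906, 647 and 853 at E5 and 747, 214 and 759 at E14 (-0.68, SE 0.37, adjusted p = 0.161), so that only E14 replicate 2 stood far below. NEO1, the receptor neogenin, had no call in either probe set (-0.50 and -0.84 from E5 to E14). The second, Gga.4738.1.S1_at, was called lower over that span without E14 replicate 1, with quantile normalization and with equal array medians.

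No netrin passed the filter. The single NTN1 probe set read 19.7, 4.21 and 13.7 at E5, 5.82, 7.94 and 59.7 at E7, 17.9, 3.70 and 18.5 at E10, and 31.0, 14.6 and 51.3 at E14, with no stage above 35 in all of its CAMs. The NTN3 probe set stayed at or under 12.4 and both NTN4 probe sets at or under 58.3. UNC5D was not tested either, at no more than 43.6.

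Of the SLITs, only SLIT3 had a call. Gga.15978.1.S1_at read 419, 253 and 395 at E5, 817, 434 and 442 at E7, 789.7, 655 and 1254 at E10, and 691, 314 and 507 at E14. Its stage means were highest at E10, where all 3 CAMs exceeded those of E5 (log2 fold change 1.32 with SE 0.34, adjusted p = 0.0137), a call lost without E5 replicate 2 or E10 replicate 3 (adjusted p up to 0.0752), and with equal array medians or HINTW as a covariate. The second SLIT3 probe set, Gga.2000.1.S1_at, read 649, 446 and 878 at E10 and 411, 116 and 273 at E14. That difference (-1.43, SE 0.38, adjusted p = 0.0538) was not called and became a call without E7 replicate 3 or E14 replicate 1 (adjusted p down to 0.019), with an offset of 16, with a floor of 20 or with the replicate block. SLIT1 and SLIT2 had no call, and SLIT2 read 148, 46.0 and 105.4 at E14.

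The ROBO receptors were not tested in any probe set. ROBO1, with 6 probe sets, read at most 79.0, and 39.5 without E7 replicate 3, ROBO2 at most 58.8 in 5 probe sets, and ROBO4, the endothelial member, at most 37.0. Low signals of this kind were common on the whole array: 17726 of 38439 probe sets passed the filter, next to 71 of the 135 guidance probe sets. The other 64 guidance probe sets failed it, and in 26 of these the highest of the 12 signals was in E7 replicate 3. For these probe sets no change could be assessed at this signal, and absence of the RNA is not shown.

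EPHA3 gave the steepest fall of all members. It encodes a receptor tyrosine kinase for A-type ephrins. Gga.805.1.S1_at read 1665, 1394 and 1609 at E5, 1876, 2037 and 1885 at E7, 988, 646 and 938 at E10, and 460.1, 104 and 359 at E14. The signal was highest at E7, and each later stage lay wholly below the one before. It fell from E10 to E14 (log2 fold change -1.71 with SE 0.39, adjusted p = 0.0281) and from E5 to E14 (log2 fold change -2.59 with SE 0.39, adjusted p = 0.000167). The second call held under every alternative, while the first was lost without E10 replicates 1, 2 or 3 (adjusted p up to 0.113), and with equal array medians, moderation without a trend or the 6 arrays compared alone. E14 replicate 2 was the lowest of its stage at 104.3, and without it the changes were -1.05 and -1.93.

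In the second EPHA3 probe set, Gga.805.2.S1_a_at, the signals were 312, 331 and 355 at E5, 379.9, 144 and 173 at E7, 111, 82.2 and 119.7 at E10, and 35.8, 46.5 and 10.4 at E14. The lowest CAM of E14 here was replicate 3, not replicate 2, and all 3 CAMs were below all of E10. It fell from E10 to E14 (log2 fold change -1.99 with SE 0.47, adjusted p = 0.0322), lost without E10 replicates 1, 2 or 3 or E14 replicate 3 (adjusted p up to 0.111), and with equal array medians, moderation without a trend or the 6 arrays compared alone, from E5 to E10 (-1.69, SE 0.47, adjusted p = 0.0206), lost without E5 replicates 1, 2 or 3 or E10 replicates 1 or 2 (adjusted p up to 0.0711), and with equal array medians or HINTW as a covariate, and from E5 to E14 (-3.68, SE 0.47, adjusted p = 4.19e-05) under every alternative. Without E14 replicate 3 the last value was -3.03.

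EPHA7, a related receptor, followed with a smaller fall. It read 272, 128 and 229 at E5, 280.4, 219.5 and 245 at E7, 201, 128 and 154 at E10, and 102, 74.3 and 83.3 at E14. All 3 CAMs of E14 were below the 9 earlier ones (log2 fold change -1.22 with SE 0.29, adjusted p = 0.00402), and the call was lost without E5 replicate 1 (log2 fold change -0.99). EPHA1 went the other way without reaching the fold (0.83, SE 0.23, adjusted p = 0.0112), from 132.5, 120 and 135 at E5 to 202, 255 and 234 at E14. Of the A-type ephrins only EFNA5 was tested, in 1 of 5 probe sets, and it gave 0.64, SE 0.31, adjusted p = 0.111. EFNA2, EPHA2, EPHA4, EPHA5, EPHA6 and EPHA10 were not tested.

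Of the B family all 6 genes were tested, in 9 of 13 probe sets. EPHB3, a receptor of B-type ephrins, rose early. It read 229.9, 259 and 207 at E5, 425, 546 and 495 at E7, 476, 466 and 397 at E10, and 430.5, 259.7 and 309.9 at E14. All CAMs of E7 and E10 were above all of E5, whereas E14 spread from 259.7 to 430.5. The rise from E5 to E7 (log2 fold change 1.07 with SE 0.21, adjusted p = 0.0208) was lost without E5 replicates 1 or 3 or E7 replicate 2 (adjusted p up to 0.0805), and with equal array medians or moderation without a trend. At E10 the level was 0.95 above E5, with an adjusted p of 0.00697 and so short of the fold alone. EPHB1 rose from E5 to E14 (log2 fold change 1.60 with SE 0.40, adjusted p = 0.0056), from 40.9, 48.2 and 38.6 to 129, 132 and 124, under every alternative. EPHB2 (-0.72, SE 0.28, adjusted p = 0.0558) and EPHB6, which lacks kinase activity (-0.19, SE 0.29, adjusted p = 0.627), had no call, although EPHB2 was called lower with equal array medians.

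EFNB1, a transmembrane ephrin, was the only gene whose probe sets were called in opposite directions. Gga.7745.1.S1_at read 142, 244 and 188 at E5, 199.9, 139.6 and 114 at E7, 306, 301 and 348 at E10, and 418, 341 and 374 at E14. Its mean was lowest at E7, from where it rose to E10 (log2 fold change 1.11 with SE 0.25, adjusted p = 0.0215), lost without E7 replicates 2 or 3 or E10 replicates 1, 2 or 3 (adjusted p up to 0.092), and with equal array medians or the 6 arrays compared alone, and it was higher at E14 than at E5 (1.01, SE 0.25, adjusted p = 0.00513), lost without E5 replicate 1 or E14 replicate 1 (log2 fold change as small as 0.81), and with an offset of 16, quantile normalization or equal array medians. By contrast, GgaAffx.26232.1.S1_at read 75.9, 63.1 and 60.2 at E5, 32.4, 42.6 and 32.9 at E7, 17.9, 26.8 and 43.9 at E10, and 68.7, 56.4 and 58.9 at E14. This probe set fell from E5 to E10 (log2 fold change -1.26 with SE 0.38, adjusted p = 0.0308), lost without E5 replicates 1, 2 or 3 or E10 replicates 1 or 2 (adjusted p up to 0.131), and with an offset of 16, quantile normalization, equal array medians or HINTW as a covariate or without the filter, and by E14 its signals were 56.4 to 68.7 and overlapped those of E5.

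**Figure D4:**
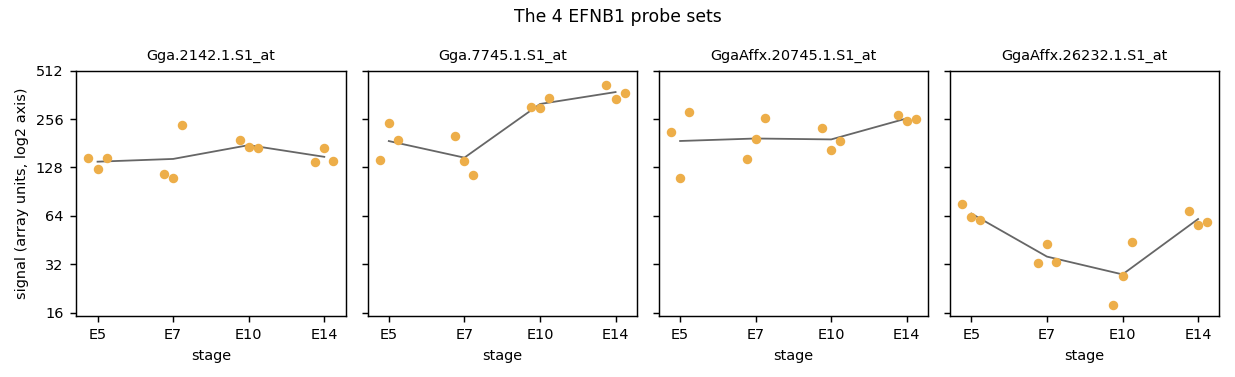
Signal (array units, log2 axis) of the 4 EFNB1 probe sets at E5, E7, E10 and E14; points are the 3 CAMs of a stage and lines join their geometric means. Gga.7745.1.S1_at ends high and GgaAffx.26232.1.S1_at dips at E10, while the other pair has stage means within 0.34 and 0.47 log2 units.

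The other EFNB1 probe sets, Gga.2142.1.S1_at and GgaAffx.20745.1.S1_at, had the smallest ranges of the family, 0.34 and 0.47 log2 units between stage means, as the plot of the 4 EFNB1 probe sets shows. Which of them reads the EFNB1 transcript best was not tested. EFNB2, the ephrin that marks arterial endothelium in mice, read 26.2 to 105.2 over the 12 CAMs and had no call (0.03, SE 0.47, adjusted p = 0.971).

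Agreement between probe sets of a gene was mixed. Of 15 genes with several tested probe sets and a call, 7 had every tested probe set called at least once, namely SEMA3C, SEMA3D, SEMA4G, SEMA6D, SEMA7A, UNC5B and EPHA3. Probe sets that failed the filter are not counted here. In SEMA4G both tested probe sets, and in SEMA3D and SEMA7A the second, passed the filter at E14 alone. They were tested only because E14 was high, so their rises to E14 cannot count as agreement. The first SEMA3D probe set passed only at E10 and E14, so its rise cannot count either. In the other 8 genes at least 1 tested probe set had no call, and the 4 remaining genes with a call, SEMA3A, EPHA7, EPHB1 and EPHB3, rested on a single tested probe set.

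Downstream of these receptors, 39 of 54 genes listed as co-receptors, effectors or modulators were tested, by the brightest probe set of each. From E5 to E7, 0 were called by limma, and 8 had an unadjusted p under 0.05. NGEF, encoding ephexin, an exchange factor that EPHA receptors act on, rose from 39.7 ± 13.1 at E7 to 186 ± 34.2 at E10 (SD, n = 3; log2 fold change 2.27, SE 0.38, adjusted p = 0.00423). VAV3, an exchange factor downstream of EPH receptors, rose from E10 to E14 by 1.54 (SE 0.31, adjusted p = 0.016). From E5 to E10, 5 rose (12.8%), among them FYN and PTK2, kinases of semaphorin and netrin signaling, and 2 fell (5.13%), near the 9.36% and 4.78% of all tested probe sets. From E5 to E14, 4 rose and 4 fell (10.3% each, against 14.8% and 13.6%), the latter CRMP1, an effector of SEMA3A (-2.70, SE 0.44, adjusted p = 0.000272), FLRT3, PTPN11 and RASA1.

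Markers of several cell types moved over the same days. For these lists, and for nerves below, each gene was read by its brightest tested probe set. The shares of all tested probe sets beside them count every probe set, so the shares are not strictly alike. Of 15 endothelial genes, all tested, 2 rose from E5 to E7 (13.3%), 5 from E5 to E10 (33.3%) and 8 from E5 to E14 (53.3%). Of all tested probe sets, 1.02%, 9.36% and 14.8% rose over these spans. By limma 0 of the 15 endothelial genes fell over these spans, also at an unadjusted p under 0.05. Their summed signal was 3566 to 4912 at E5, 6736 to 8607 at E7, 6659 to 10120 at E10 and 7387 to 9904 at E14. Of 10 mural and smooth muscle genes, 6 were tested and 5 rose from E5 to E14 (83.3%). Their sums were 838 to 980 at E5 and 2838 to 8282 at E14. Epithelial genes summed to 7082 to 10610 at E5 and 18430 to 21190 at E14. Of 10 epithelial genes tested, 7 were higher (70%) and 1 lower (10%). Leukocyte genes summed to 322 to 427 and 3537 to 5309, with 7 of 8 higher (87.5%). Erythroid genes summed to 7861 to 14900 and 12000 to 16370, with 4 of 6 higher (66.7%) and 1 lower (16.7%). Of all tested probe sets, 14.8% rose and 13.6% fell from E5 to E14. Sums over a list weigh its brightest genes most.

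For nerves, 6 of 14 neuronal genes were tested, and MAP2, DCX, GAP43, NEFM and SYT1 did not pass. Of the 6, 4 rose and 1 fell from E5 to E10 (66.7% and 16.7%, against 9.36% and 4.78% of all tested probe sets). From E5 to E14, 3 rose and 2 fell (50% and 33.3%, against 14.8% and 13.6%). Their median log2 fold change was 2.33 from E5 to E10 and 1.48 from E5 to E14. The sums, which weigh the brightest genes most, were 1486 to 2139 at E5, 2038 to 2330 at E10 and 708 to 1409 at E14. The 2 tested Schwann and neural crest genes summed to 799 to 1120 at E5 and 387 to 585 at E14. The part of any of these cell types in the changes of guidance genes was not tested.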

How the data were processed

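Total RNA of 3 CAMs per stage was hybridised to Affymetrix chicken arrays. The deposited values are intensity signals computed by the authors with GCOS 1.2 per the labels and scaled globally to a trimmed mean of 100. They are linear, without detection calls. The authors filtered on present calls and used SAM with a rank statistic, fold over 2 and FDR under 5%. With 3 against 3 an exact rank test cannot go below p = 0.1, so log2 signals were fitted with limma 3.58.1 in R 4.3.3 (12 arrays, a mean per stage, eBayes with trend). Probe sets under a signal of 35 in a CAM of every stage were left out. Symbols came from the platform annotation, in which 27168 of 38439 probe sets carry 1 symbol, 177 several and 11094 none. Members and lists were chosen with earlier results of these data known.

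Named are the called members, SEMA6D, SEMA3C, EPHA3, UNC5B, EPHB3, SEMA3D and NTN1, per family the 2 smallest p between neighbouring stages and the 2 smallest ranges of stage means at a mean log2 signal of 7 or more, genes whose probe sets disagree, the neuropilins, and at most 4 called genes per list and comparison. PLXND1, EFNB2, EPHB2, EPHB6, SEMA4D, SEMA6A, PLXNB3, SLIT1, SEMA3F, SEMA3DL, the genes that failed the filter and the second NEO1 probe set were added after their values were seen. Alternatives were no filter, a limit of 50, an offset of 16, a floor of 20, quantile normalization, equal medians, eBayes without trend, the 6 arrays compared alone, log2 HINTW as a covariate, the replicate number as a block, and each array left out. The code was tested on simulated data. Log2 fold changes had a median SE of 0.33, and the number of arrays limits the precision. Python 3.11.15 with matplotlib 3.10.9 made the plots.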

Additional observations from a re-analysis of the deposited data

How the results depend on the processing

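None of the 53 calls of a guidance probe set in a comparison reversed its direction under the 22 alternatives. Of these calls, 17 held in all alternatives and 1, PLXNA2, in the 21 that tested it. The latter probe set passed the filter at E14 alone, so its kept call is no support for the rise. Among the 17 are calls of SEMA3D Gga.3972.1.S1_at and PLXNA2 Gga.19875.1.S1_at, which passed the filter only at E10 and E14. Their kept calls are no support either. The limit of 50 tested 47 and kept these, and equal medians ended 24, the most of any setting. Another 23 changes became calls under an alternative. Scaling to equal medians moved the median log2 change of all probe sets by -0.32 from E5 to E7, 0.26 from E7 to E10, -0.24 from E10 to E14 and -0.29 from E5 to E14. The members' median from E5 to E7 went from 0.30 to -0.01. From E5 to E14 all tested probe sets went from 2617 higher and 2418 lower to 1677 and 3262. With equal medians the guidance probe sets called were 0 from E5 to E7 (5 as reported), 0 from E10 to E14 (2 as reported) and 11 from E5 to E10 (18 as reported). Over all tested probe sets the count from E5 to E7 was 223 as reported, against 19 higher and 10 lower with equal medians. Moderation without a trend gave 3 from E5 to E7 and 0 from E10 to E14. The 6 arrays compared alone gave 3 and 1 for these, where the 1 was SEMA3D as higher and both EPHA3 calls were lost. An offset of 16 gave 4 from E10 to E14, among them SEMA3D as higher. Leaving out 1 array at a time gave 3 to 6 calls from E5 to E7, 1 to 4 from E7 to E10, 0 to 5 from E10 to E14, 12 to 20 from E5 to E10 and 18 to 27 from E5 to E14. The cause was not tested. The replicate numbers gave no sign of pairing the CAMs. Deviations of 18 same-numbered pairs correlated at -0.14 to 0.071, and those of 36 other-numbered pairs at -0.151 to 0.146. With deviations taken from a mean of 3 arrays, these values cannot exclude a pairing. With the replicate number as a block the counts were 4, 3, 3, 18 and 25 in the order above. Signals near 20 and below limit PLXNA2, SEMA3G, SEMA4G and SEMA7A, whose changes vary with the offset or floor. The SEMA5A call, from E5 signals of 28.5 to 59.6, was also lost with an offset of 16.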
